A study of Mus musculus with 26 samples.

Results

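The genes described here are 36 genes of the amino acid stress response and of the pathways it feeds: the transcription factor Atf4 with its partners and feedback genes, the enzymes that make asparagine, proline and serine, the enzymes that move one-carbon units, and the enzymes that load amino acids onto tRNA. They were chosen by symbol, and all 36 were found among the 21761 genes of each of the 2 deposited count tables. They were followed through 26 libraries of polyadenylated RNA from mouse CD4+ T cells of C57BL/6 background, taken from spleen and lymph nodes.

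The first table held 20 libraries. Foxp3-eGFP reporter mice aged 5 to 6 weeks gave naive cells (CD4+eGFP-CD25-CD62LhiCD44lo, sorted and not cultured, 2 libraries), Th0 cells (naive cells activated with anti-CD3/CD28, 2 libraries) and induced regulatory T cells (iTreg). The iTreg were made with TGFβ alone, with TGFβ and vitamin C (VitC), with TGFβ and retinoic acid (RA), or with TGFβ, RA and VitC, with 2 libraries each. Mice aged 3 weeks gave regulatory T cells (Treg) sorted as CD4+eGFP+ without culture. One group of 4 libraries, called Tet2/3-deficient, carried Tet2fl/fl and Tet3fl/fl with the CD4-Cre transgene, and another of 4, called control Treg, carried the same floxed alleles without Cre, both with the Foxp3-eGFP reporter. CD4-Cre acts in all cells that pass through the CD4-expressing stage of T cell development, so the deletion was not limited to Treg. The second table held 6 libraries from Foxp3-eGFP reporter mice aged 12 to 14 weeks: TGFβ iTreg sorted as Foxp3+ at day 6 (3 libraries), and cells that were Foxp3- when sorted at day 6 after such iTreg had been restimulated with anti-CD3/CD28 (3 libraries). The 2 tables were never pooled, and the restimulated cells differed from the day 6 iTreg in both restimulation and sorted Foxp3 state.

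As background, ATF4 is a transcription factor whose protein is made mainly through translation of its mRNA when the initiation factor eIF2 alpha is phosphorylated, for example when uncharged tRNA activates the kinase GCN2. It binds with C/EBP-family partners to composite elements and drives genes that make or import amino acids and that charge tRNA, so its mRNA level is only part of its activity. In activated T cells, serine and the one-carbon units derived from it are used for nucleotide synthesis during proliferation.

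Library totals ran from 9647669 to 11640223 counts in naive and cultured cells, from 13397602 to 17672302 in ex vivo Treg and from 11293704 to 17219805 in the second table. Foxp3 stood at 542 to 611 CPM (the count of a gene scaled to a common library total, the usual counts-per-million unit) in Tet2/3-deficient Treg and 606 to 737 in control Treg, at 302 to 338 in day 6 iTreg and at 13.5 to 17.8 in the restimulated cells. Tet2 and Tet3 gene totals also count exons outside a floxed segment and so do not check the deletion: Tet2 did not pass the test between the genotypes (log2 fold change 0.02 ± 0.15 SE, edgeR adjusted p = 0.930) and Tet3 was lower in the Cre-carrying cells (-0.52 ± 0.10, edgeR adjusted p = 0.00255). Ex vivo Treg carried RNA of other cell types. The summed level of 4 B cell markers was 42.6 to 103 CPM in control and 40.7 to 58.2 in Tet2/3-deficient libraries, and that of 4 erythroid markers was 73.9 to 195 and 52.3 to 114. These are bulk samples, so fewer cells of a type and less RNA per cell cannot be told apart. The labels do not say which libraries came from separate animals or cultures, and p-values here measure the spread between libraries, which may be technical.

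Levels were compared between genes on the length-corrected scale (deposited FPKM, counts scaled by library total and exon length). In Th0 cells, Phgdh had the highest mean level, at 235 FPKM, followed by Atf4 at 139, Shmt2 and Gars both at 132, Kars at 131 and Psat1 at 119. The lowest were Chac1 at 0.631, Pycr1 at 1.21 and Sesn2 at 1.63 FPKM. Chac1, a glutathione-degrading enzyme strongly induced in amino acid stress, had between 0 and 17 reads in any library of the first table and did not pass the filter on low counts in any comparison.

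Some of the members carry near their start site the letters of the composite site that ATF4 and C/EBP proteins are known to bind. Promoter windows from RefSeq (build GRCm38.p6, 250 bases before to 50 after each annotated start) were matched by symbol for 29 of the 36 members and searched on both strands for TGATGNAA. The letters were present in 9 of the 29 members (31%) and in 1219 of all 27025 genes with a window (4.51%). A match is a description of the letters and not a measured site of binding. The 9 were Trib3, Chac1, Asns, Pycr1 and the synthetase genes Aars, Gars, Iars, Tars and Yars. None of the 3 serine genes or the 6 one-carbon and glycine genes had a match, which says only that these letters are not in this window. The sequences of 7 are shown because Asns, Pycr1 and Trib3 gave some of the widest ranges below and because the others show the placement of the letters in synthetase genes and in Chac1. Each is written 5′ to 3′ on the strand of the gene with the matched letters in capitals (TGATGNAA or its reverse complement).
Asns (chr6:7693210-7693272, minus strand, match at position -23 from the start): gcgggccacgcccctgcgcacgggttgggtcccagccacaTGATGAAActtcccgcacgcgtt
Pycr1 (chr11:120643804-120643891, minus strand, match at -103): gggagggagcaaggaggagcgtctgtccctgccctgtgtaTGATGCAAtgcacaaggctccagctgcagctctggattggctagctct
Chac1 (chr2:119351009-119351096, plus strand, match at -193): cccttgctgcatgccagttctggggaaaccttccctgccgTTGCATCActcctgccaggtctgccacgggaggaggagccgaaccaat
Aars (chr8:111033690-111033777, plus strand, match at -112): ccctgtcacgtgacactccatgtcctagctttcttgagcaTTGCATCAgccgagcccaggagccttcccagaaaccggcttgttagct
Gars (chr6:55037931-55038000, plus strand, match at -30): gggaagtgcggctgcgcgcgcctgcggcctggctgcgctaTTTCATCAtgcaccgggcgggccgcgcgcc
Tars (chr15:11399659-11399713, minus strand, match at -15): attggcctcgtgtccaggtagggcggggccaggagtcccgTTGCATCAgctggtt
Trib3 (chr2:152344028-152344057, minus strand, match at 15, within the transcript): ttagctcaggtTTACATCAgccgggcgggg

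**Figure D1:**
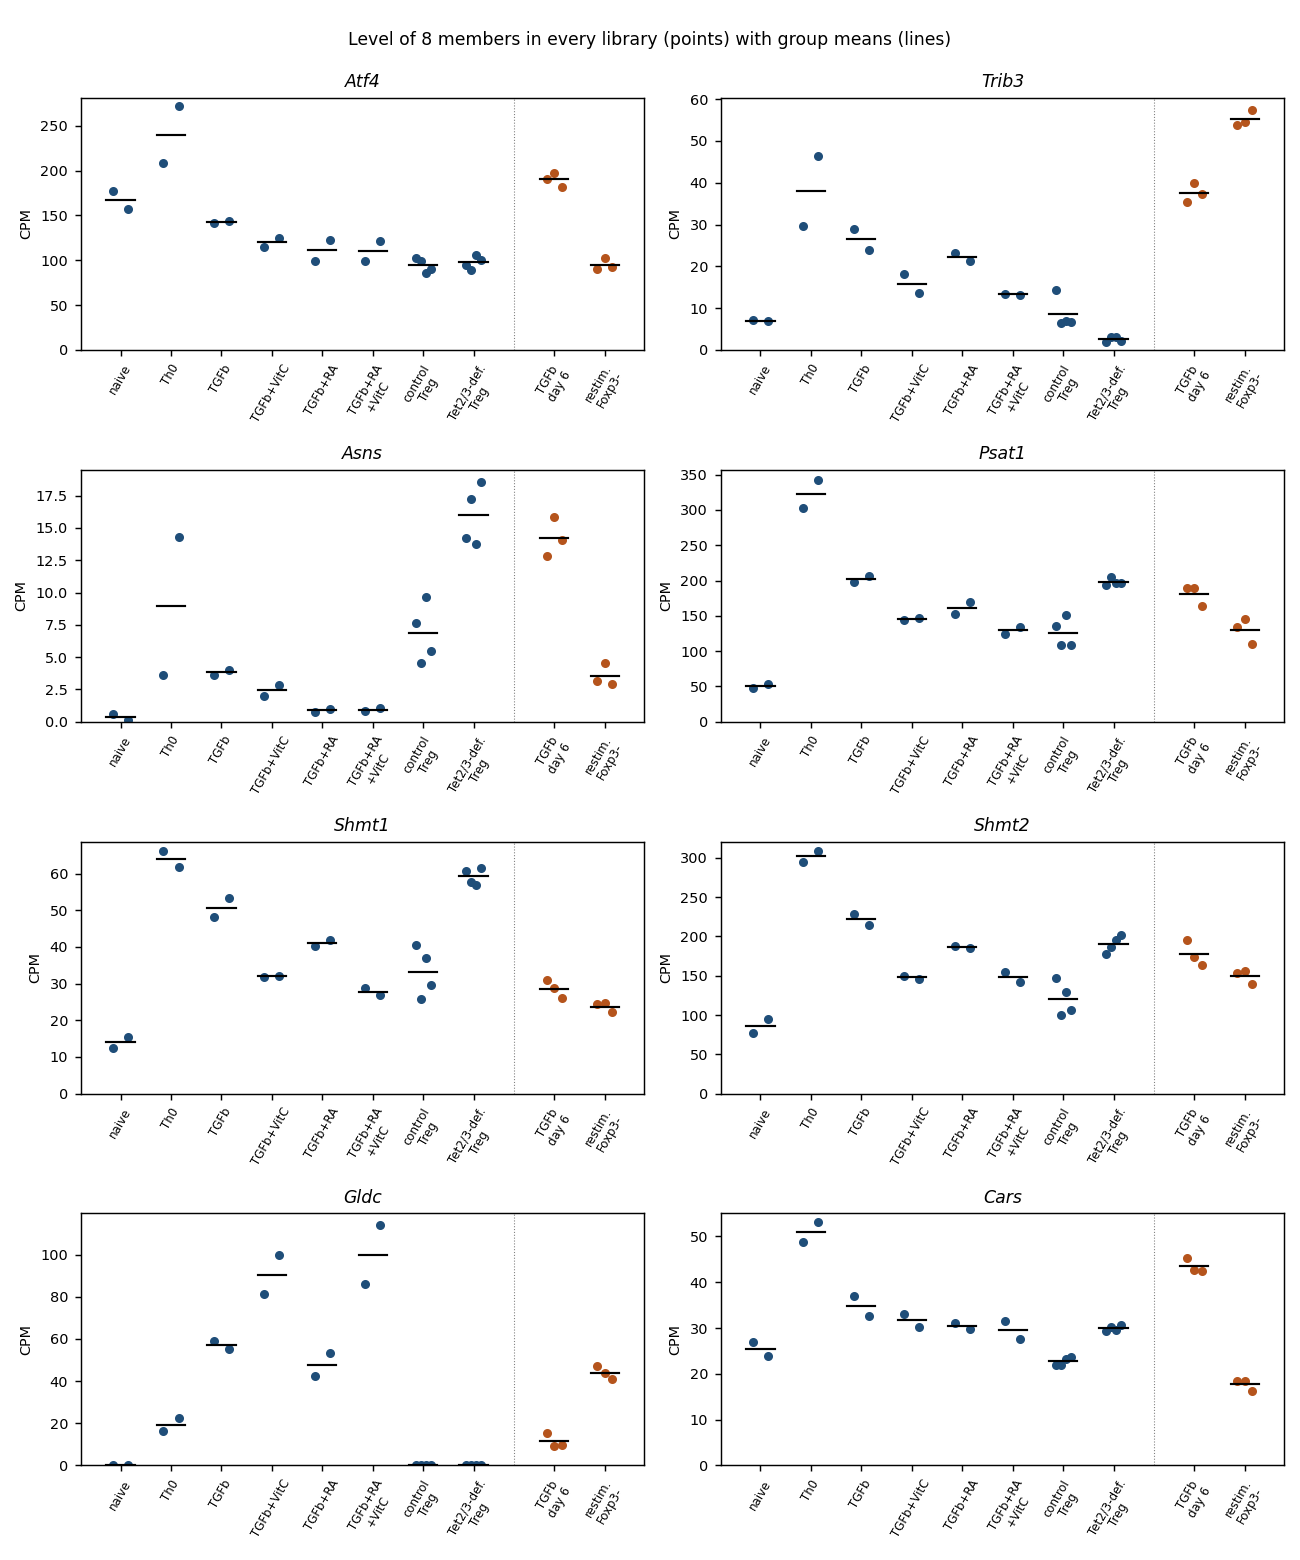
Level of 8 members (CPM, linear axes from 0) in every library, as points, with group means as lines; blue points are the first table and orange points the second, which were not normalised together. Trib3 lies at 2.02 to 3.18 in Tet2/3-deficient Treg against 53.7 to 57.5 in the restimulated cells, and Gldc is near 0 in naive cells and in ex vivo Treg but at 16.2 or more in every Th0 and iTreg library of the first table.

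Nearly all of the members were higher in activated than in naive cells. Between Th0 and naive cells, 31 of the 35 tested members were higher and 1 was lower at an adjusted p under 0.05 (edgeR quasi-likelihood test, Benjamini-Hochberg over all 11287 genes tested). Over all genes 35.7% were called higher and 36.4% lower, and the median log2 fold change was 0.82 over the members and -0.01 over all genes. The cell cycle moved with this: all 12 proliferation genes of a list for comparison were higher, with a summed level of 6615 ± 1.54 CPM (SD, n = 2) in Th0 against 613 ± 23.5 in naive cells, while both CD8 markers, 1 of 2 tested B cell markers and the 1 tested myeloid and 1 tested immature thymocyte markers were lower, and their part in the members' result was not tested.

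Transcripts of all 3 serine synthesis genes rose. Psat1, the transaminase of the pathway, was at 48.3 and 53.4 CPM in naive cells and at 303 and 342 in Th0 (log2 fold change 2.64 ± 0.10 SE, edgeR adjusted p = 3.01e-12). Phgdh, which takes the first step from glycolysis into serine, went from 101 and 112 to 420 and 460 CPM (2.01 ± 0.10, edgeR adjusted p = 1.00e-10). Psph, the final phosphatase, rose by less (1.06 ± 0.14, edgeR adjusted p = 8.48e-06). In each of the 3 genes the Th0 libraries lay apart from the naive ones, but the share of all genes without overlap is not given here.

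Transcripts of the one-carbon enzymes followed. Shmt1, the cytosolic enzyme that splits serine into glycine and a one-carbon unit, was at 12.5 and 15.5 CPM in naive and at 66.1 and 61.8 in Th0 (2.16 ± 0.12, edgeR adjusted p = 3.82e-10). Its mitochondrial counterpart Shmt2 rose from 76.7 and 94.6 to 295 and 309 CPM (1.79 ± 0.10, edgeR adjusted p = 4.30e-10). Mthfd2 (1.61), Mthfd1 (0.78) and Mthfd1l (0.73), which carry the unit through its folate forms, were also called higher, with log2 fold changes in that order. Gldc, the decarboxylase of the glycine cleavage system, had no read in either naive library and 166 and 227 reads in Th0. Against a floor of 3 counts over both naive libraries it was at least 126-fold higher.

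Asparagine synthetase, Asns, rested on 6 and 1 reads in naive cells and on 37 and 144 in Th0, that is 0.604 and 0.104 CPM against 3.61 and 14.3. The rise was called (4.57 ± 0.76, edgeR adjusted p = 0.000208), but in CPM the Th0 libraries differed from each other by more than the lower one differed from naive cells. As a ratio, the lower Th0 library lay further from both naive libraries than from the other Th0 library. Transcripts of proline synthesis were also higher: Pycr1, the last enzyme, went from 0.504 and 0.8292 to 3.81 and 5.16 CPM (2.70 ± 0.40, edgeR adjusted p = 2.06e-05), and Aldh18a1, the first, rose by a log2 fold change of 0.82. Eif4ebp1, a repressor of cap-dependent translation, was at 5.14 and 4.56 CPM in naive and 32.1 and 49.3 in Th0 (3.03 ± 0.20, edgeR adjusted p = 3.23e-09).

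Among the regulators the picture was mixed. Atf4 itself was at 177 and 157 CPM in naive cells and at 208 and 272 in Th0, a 1.40-fold rise (0.49 ± 0.13, edgeR adjusted p = 0.00322). Trib3, a pseudokinase that ATF4 induces and that feeds back on it, rose from 7.25 and 6.84 to 29.7 and 46.4 CPM (2.40 ± 0.21, edgeR adjusted p = 8.24e-08). Ddit3, which encodes CHOP, was the member called lower, at 17.9 and 21.4 CPM in naive against 9.08 and 15.6 in Th0 (-0.70 ± 0.21, edgeR adjusted p = 0.00702). Atf5 (log2 fold change 0.82) and Cebpg (50.7 and 43.0 CPM in naive against 75.0 and 75.9 in Th0) were also called higher. Cebpb was not called (-0.23 ± 0.25, edgeR adjusted p = 0.413).

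All but 2 of the 14 cytosolic tRNA synthetase members were higher in Th0, led by Vars (1.53), Gars (1.27) and Aars (1.25); Lars (0.09 ± 0.11) and Wars (0.18 ± 0.09) were not called. Xpot, which exports tRNA from the nucleus, rose by 0.80. Of 6 other cytosolic synthetases 4 were called higher and none lower, while of 17 mitochondrial synthetases 5 were higher and 3 lower, with median log2 fold changes of 0.63 and 0.14. Leaving out 1 library at a time, the called members other than Atf4, Atf5, Ddit3, Sars and Sesn2 kept their call every time. For Atf4 the log2 fold change was 0.32 without the second Th0 library.

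**Figure D2:**
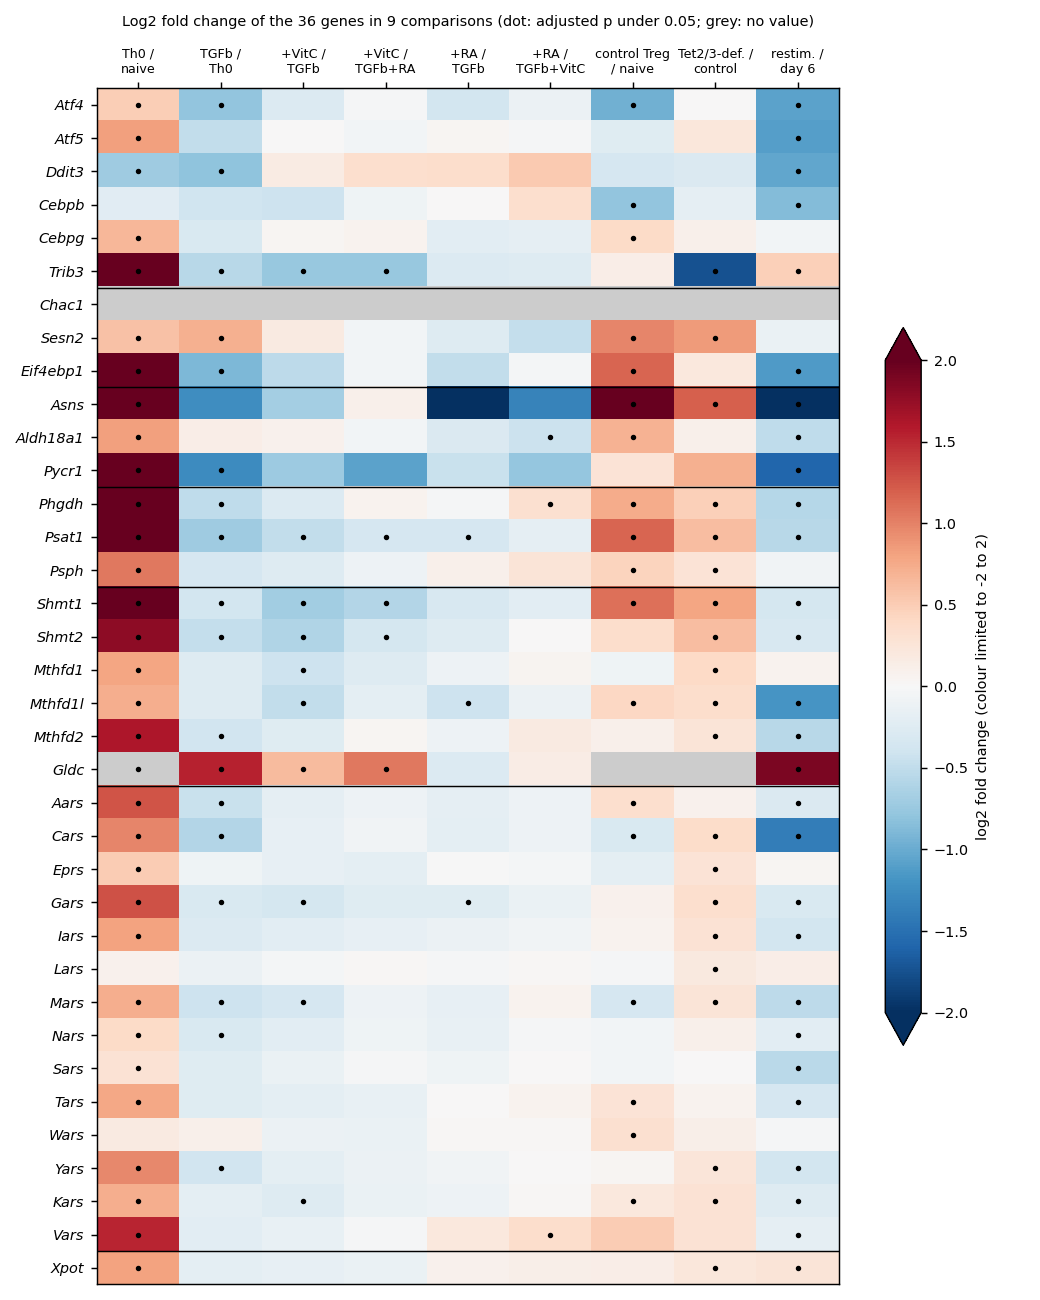
Log2 fold change (colour, limited to -2 to 2) of the 36 genes (rows, grouped by role) in 9 comparisons (columns); dots mark an adjusted p under 0.05 (edgeR), and grey marks genes that were not tested and Gldc in Th0 against naive cells, where naive cells had no read. The first column is mostly red, with 31 genes called higher, and the last mostly blue, with 25 called lower, and Gldc is red in the columns for TGFβ, for both additions of VitC and for restimulation. Neighbouring columns share control libraries and are not independent.

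More members were lower than higher in TGFβ iTreg when set beside Th0 cells. Of 35 tested members 2 were higher and 16 lower (edgeR), against 14.5% and 11.6% of all genes, and the members' median log2 fold change was -0.34 (0.00 over all genes). Atf4 was at 141 and 144 CPM in TGFβ iTreg against 208 and 272 in Th0 (-0.78 ± 0.13, edgeR adjusted p = 0.000525). Ddit3 (-0.81), Eif4ebp1 (-0.90) and Pycr1 (-1.25) were lower as well. Pycr1 stood at 1.73 and 2.098 CPM in iTreg and 3.81 and 5.16 in Th0. Eif4ebp1 was at 21.1 and 23.4 against 32.1 and 49.3, and Ddit3 at 6.48 and 7.91 against 9.08 and 15.6. The groups did not overlap in these genes, but the share of all genes without overlap is not given here. For Ddit3 the log2 fold change ran from -1.14 to -0.38 with 1 library left out. Psat1 was at 198 and 206 CPM in iTreg against 303 and 342 (-0.71 ± 0.09, edgeR adjusted p = 4.39e-05). Asns had 3.65 and 4.005 CPM in iTreg, within the span of the Th0 libraries, and was not called (-1.25 ± 0.49, edgeR adjusted p = 0.0853). Without the second Th0 library its log2 fold change was 0.04, so its direction rested on that library; with the replicate number as a block it was called (edgeR adjusted p = 0.0377).

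Of the synthetases 6 were lower and none higher, led by Cars, which charges cysteine tRNA, at 36.9 and 32.6 CPM in iTreg against 48.8 and 53.2 in Th0 (-0.58 ± 0.11, edgeR adjusted p = 0.00196). The members called higher went the other way from their neighbours in the pathway: Gldc was at 59.0 and 55.3 CPM in iTreg against 16.2 and 22.5 in Th0 (1.53 ± 0.18, edgeR adjusted p = 6.06e-05). Sesn2, a leucine sensor that restrains mTORC1, was at 20.4 and 16.2 CPM against 11.2 and 10.6 (0.72 ± 0.18, edgeR adjusted p = 0.0110). Of the 12 cell cycle genes 8 were lower in iTreg. Of the markers of other cells, 1 of 2 tested B cell, 1 of 1 myeloid and 1 of 1 erythroid markers were higher, the erythroid sum being 45.4 and 36.3 CPM in iTreg and 0.781 and 0.893 in Th0. Their part in the result was not tested. The second Th0 library, with the higher Atf4, Asns, Trib3 and Ddit3, bears on the count: without it 9 members were called (1 higher, 8 lower), and without the first TGFβ library 8 (1 higher, 7 lower). Gldc, Psat1, Shmt2, Atf4, Eif4ebp1, Aars, Phgdh and Cars were called whichever library was left out.

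VitC, a cofactor of TET dioxygenases and other enzymes, was added to TGFβ alone or to TGFβ with RA. Added to TGFβ, it was associated with 1 member higher and 9 lower of 35 tested (edgeR), against 8.84% and 7.99% of all genes, with a member median log2 fold change of -0.22. Both forms of serine hydroxymethyltransferase were lower. Shmt1 was at 31.9 CPM in both VitC libraries against 48.2 and 53.2 with TGFβ alone (-0.69 ± 0.11, edgeR adjusted p = 0.000825). Shmt2 was at 150 and 146 CPM against 229 and 215 (-0.61 ± 0.10, edgeR adjusted p = 0.000847). Psat1 was at 144 and 147 against 198 and 206 CPM (-0.50 ± 0.09, edgeR adjusted p = 0.00185). These 3 members kept their call whichever library was left out.

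Trib3 was lower with VitC, at 18.1 and 13.7 CPM against 28.9 and 24.0 (-0.76 ± 0.19, edgeR adjusted p = 0.0151). Mthfd1l (98.4 and 94.4 CPM against 137 and 129) and Mthfd1 (88.1 and 111 against 119 and 141) were lower, by log2 fold changes of -0.49 and -0.41, and so were the synthetases Gars (-0.35), Mars (-0.34) and Kars (-0.25). Gldc was the member called higher, at 81.1 and 99.5 CPM against 59.0 and 55.3 (0.64 ± 0.16, edgeR adjusted p = 0.0177), but not without the first or second TGFβ library or the second VitC library, each of which left 5 called members, all lower. Atf4 was at 115 and 125 CPM with VitC and was not called (-0.27 ± 0.13, edgeR adjusted p = 0.166). Of the cell cycle genes 9 of 12 were lower with VitC, from a sum of 5620 ± 214 CPM to 4479 ± 351 (SD, n = 2). Both CD8 markers were higher, from sums of 13.2 and 15.4 CPM to 23.3 and 28.2, and so was the 1 tested immature thymocyte marker; no B cell, myeloid or erythroid marker tested was called. Their part was not tested. With the replicate number as a block, Phgdh (edgeR adjusted p = 0.00979), Eif4ebp1 (0.0154) and Mthfd2 (0.0193) were also called lower.

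With RA present, VitC was associated with 1 member higher and 4 lower of 35 (edgeR), where 4.31% and 3.22% of all genes were called. Gldc rose from 42.4 and 53.1 CPM with TGFβ and RA to 86.1 and 114 with VitC added (1.05 ± 0.16, edgeR adjusted p = 0.00152), and was called without any one of the 4 libraries. Shmt1 fell from 40.2 and 41.9 to 28.7 and 26.8 CPM (-0.58 ± 0.11, edgeR adjusted p = 0.00468). Trib3 fell from 23.1 and 21.2 to 13.5 and 13.2 CPM (-0.75 ± 0.20, edgeR adjusted p = 0.0301). Shmt2 (187 and 185 to 155 and 142 CPM, -0.34) and Psat1 (152 and 170 to 125 and 134 CPM, -0.33) were lower by less. The count fell to 3 without the first RA library, 2 without the second or without the first RA and VitC library, and 1, Gldc, without the second RA and VitC library. With the replicate number as a block Gars was also called lower (edgeR adjusted p = 0.0268), and over all genes 1363 were called in place of 851. Of the cell cycle genes 4 of 12 were lower, and both CD8 markers (sums of 11.3 ± 0.428 CPM to 40.6 ± 2.15, SD, n = 2), 1 of 2 tested B cell markers and the 1 tested immature thymocyte marker were higher; their part was not tested.

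The calls for RA depended on the fit. Added to TGFβ, it left 0 members higher and 3 lower of 35 (edgeR), against 7.19% and 9.29% of all genes. The 3 lower members were near the share of all genes called lower. DESeq2 called 6, and edgeR with the replicate number as a block called 9, all lower. The shares of all genes given here belong to the edgeR fit without the block. They set no background for the counts from the other fits. The 3 called without the block were Mthfd1l (106 and 95.7 CPM against 137 and 129, -0.41 ± 0.12, edgeR adjusted p = 0.0316), Psat1 (152 and 170 against 198 and 206, -0.34 ± 0.09, edgeR adjusted p = 0.0167) and Gars (222 and 223 against 257 and 264, -0.24 ± 0.08, edgeR adjusted p = 0.0439). None of the 3 kept its call whichever library was left out: 1 member was called without the first RA library, 0 without either TGFβ library, and 3 (1 higher, 2 lower) without the second RA library. Asns had 0.756 and 1.00 CPM with RA against 3.65 and 4.005, from 8 and 10 reads against 40 and 42, and missed the threshold (-2.12 ± 0.71, edgeR adjusted p = 0.0641; DESeq2 adjusted p = 0.00737). Atf4 was at 99.4 and 123 CPM (-0.37 ± 0.13, edgeR adjusted p = 0.0670). With the block, Atf4 (edgeR adjusted p = 0.0163), Asns (0.0203), Eif4ebp1 (0.0218), Aldh18a1 (0.0265), Shmt1 (0.0331) and Shmt2 (0.0383) were called lower as well. Of the cell cycle genes 11 of 12 were lower with RA. The tested myeloid and erythroid markers, 1 of each, were lower and the immature thymocyte marker was higher, with erythroid sums of 0.850 and 3.50 CPM against 45.4 and 36.3. Of the CD8 markers 1 was higher and 1 lower, and 1 of 2 tested B cell markers was higher; their part was not tested.

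Added to TGFβ with VitC, RA was associated with 2 members higher and 1 lower of 35 (edgeR), against 5.81% and 9.30% of all genes. Neither count was above the share of all genes called in the same direction. Phgdh was at 330 and 336 CPM against 253 and 281 (0.32 ± 0.09, edgeR adjusted p = 0.0351) and Vars at 553 and 497 against 413 and 408 (0.35 ± 0.10, edgeR adjusted p = 0.0322). Aldh18a1 was lower, at 156 and 148 against 205 CPM in both VitC libraries (-0.44 ± 0.10, edgeR adjusted p = 0.00911). Atf4 was not called (-0.12 ± 0.13, edgeR adjusted p = 0.612). Without the first VitC library no member was called, and without any other single library 1 was. With the replicate number as a block 5 were called, Ddit3 higher (edgeR adjusted p = 0.0350) and Sesn2 lower (0.0163) in addition. Of the cell cycle genes 8 of 12 were lower, the 1 tested myeloid and 1 tested erythroid markers were lower, and the immature thymocyte marker, 1 of 2 CD8 and 1 of 2 tested B cell markers were higher; their part was not tested.

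Whether the VitC effect differed with RA was tested as an interaction. Of 35 members 0 were called in either direction by edgeR, 2 had an unadjusted p under 0.05 (Phgdh and Mthfd2), and DESeq2 called 0; over all genes 0.00% were called higher and 0.0177% lower. With the replicate number as a block, 0 members and 26 genes of all tested were called. For Gldc the log2 fold changes with VitC were 0.64 ± 0.16 without RA and 1.05 ± 0.16 with it, and the difference was not called. With 2 libraries a group, the standard errors of the interaction were 0.19 for Atf4 and 1.08 for Asns on the log2 scale.

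In ex vivo Treg, the Tet2/3-deficient genotype went with more of the serine, one-carbon and tRNA charging transcripts, while Atf4 was not called. Of 34 tested members 19 were higher and 1 lower in Tet2/3-deficient Treg (edgeR), against 16.7% and 15.8% of all 11679 genes tested, and the member median log2 fold change was 0.25 (0.00 over all genes). Atf4 was at 95.2, 89.7, 106 and 101 CPM in Tet2/3-deficient libraries and at 102, 98.8, 86.0 and 90.7 in controls (0.01 ± 0.07, edgeR adjusted p = 0.908), with the groups overlapping throughout. Atf5, Ddit3, Cebpb and Cebpg were not called either.

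All 3 serine genes rose. Psat1 was at 194, 205, 197 and 196 CPM in Tet2/3-deficient cells and at 136, 108, 152 and 109 in controls (0.61 ± 0.11, edgeR adjusted p = 0.00133). Phgdh was at 272, 272, 278 and 293 against 235, 166, 225 and 156 CPM (0.47 ± 0.13, edgeR adjusted p = 0.0202), and Psph rose by 0.27 ± 0.08. In each the lowest Tet2/3-deficient library lay above the highest control, but the share of all genes without overlap is not given here.

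All 5 tested one-carbon genes rose too. Shmt1 was at 60.7, 57.7, 57.0 and 61.6 CPM against 40.6, 25.8, 37.1 and 29.6, a 1.74-fold rise (0.80 ± 0.12, edgeR adjusted p = 0.000779). Shmt2 was at 178, 186, 195 and 201 against 147, 100, 130 and 106 CPM (0.62 ± 0.11, edgeR adjusted p = 0.00193). Mthfd1 was at 117, 121, 116 and 132 against 98.0, 79.7, 92.6 and 87.7 CPM (0.40 ± 0.08, edgeR adjusted p = 0.00201), and Mthfd1l (0.34) and Mthfd2 (0.25) rose by less. Gldc was not tested: it had 1 to 4 reads in each Tet2/3-deficient library and 0 to 2 in each control. Among the controls, libraries S1 and S3 lay above S2 and S4 in each of these 5 genes.

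Asns had the largest rise, 2.28-fold, from 7.67, 4.53, 9.64 and 5.52 CPM in controls to 14.3, 17.3, 13.8 and 18.6 (1.19 ± 0.22, edgeR adjusted p = 0.00205). Sesn2 rose from 15.7, 17.3, 13.4 and 14.8 to 26.2, 33.7, 30.05 and 22.9 CPM (0.85 ± 0.13, edgeR adjusted p = 0.000508). Trib3 went the other way and was the member called lower, at 2.02, 3.18, 3.00 and 2.15 CPM against 14.3, 6.35, 6.90 and 6.61, a 3.34-fold difference (-1.74 ± 0.29, edgeR adjusted p = 0.00113). Control library S1 stood above its group in Trib3, and the call held without it, as it did without each other library. Asns and Trib3 are both known as targets of ATF4 and both carry the searched letters in their promoter windows, and they changed in opposite directions.

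**Figure D3:**
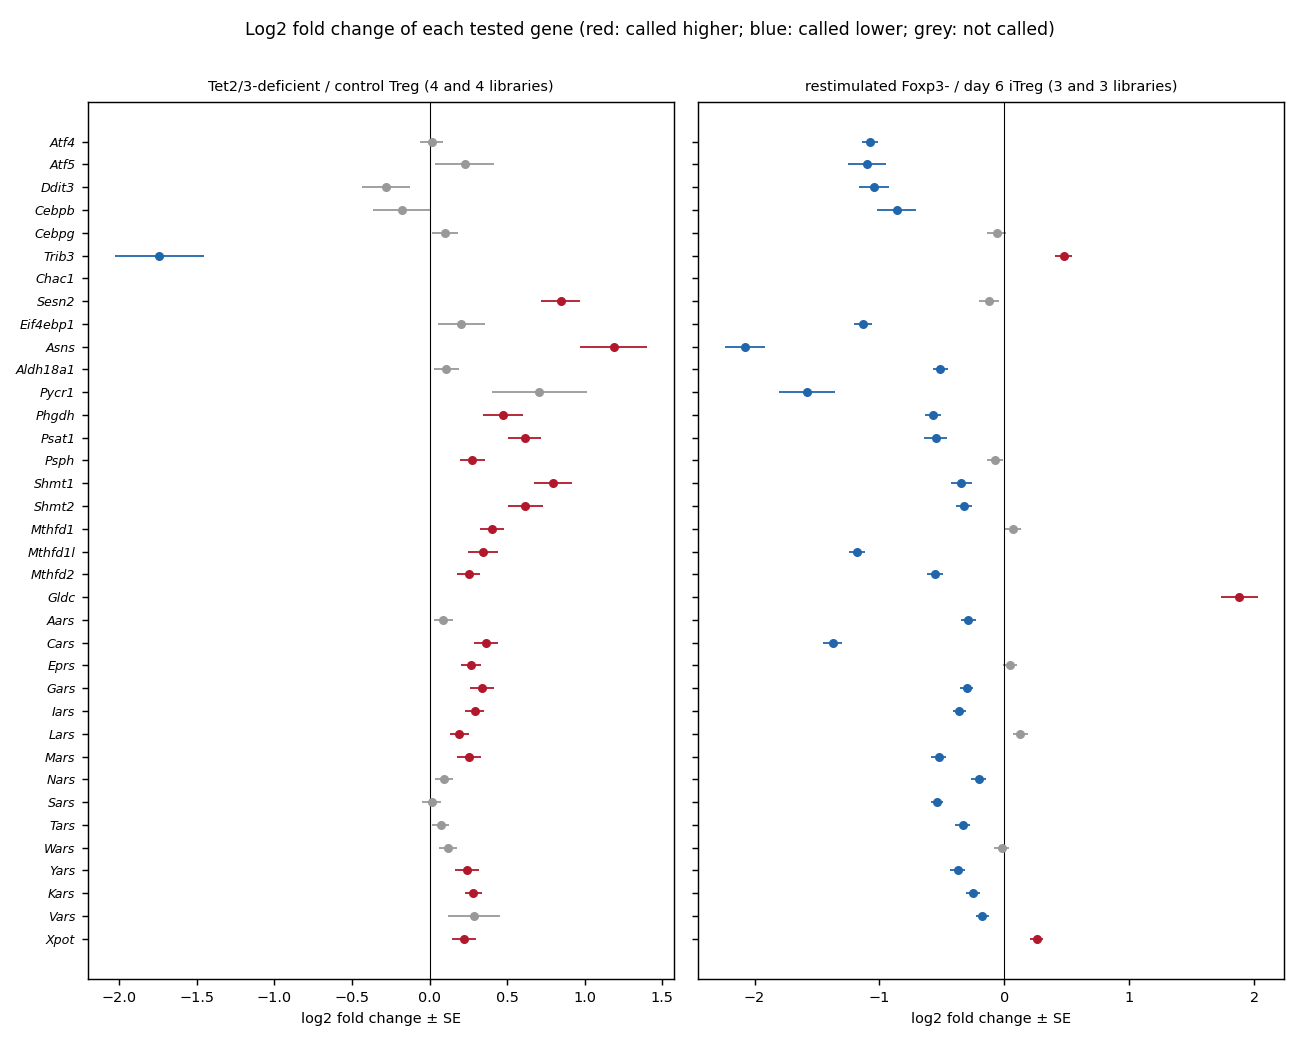
Log2 fold change with its standard error (x axis) of each tested member (y axis) between Tet2/3-deficient and control Treg (left, 4 libraries a group) and between restimulated Foxp3- cells and day 6 iTreg (right, 3 a group); red is called higher, blue called lower and grey not called (edgeR, adjusted p under 0.05). On the left the genes called higher lie between 0.19 for Lars and 1.19 for Asns with Trib3 alone far to the left at -1.74, and on the right most lie below 0 while Gldc is at 1.88.

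Of the 14 synthetase members 8 were higher in Tet2/3-deficient Treg and none was lower. Cars was at 29.3, 30.3, 29.6 and 30.7 CPM against 22.0, 21.9, 23.3 and 23.6 (0.36 ± 0.07, edgeR adjusted p = 0.00350), Gars rose by 0.34, Iars by 0.29 and Kars by 0.28, and Eprs, Mars, Yars and Lars by 0.19 to 0.27. Vars was not called (0.29 ± 0.17, edgeR adjusted p = 0.232), with control S1 at 384 CPM, above every Tet2/3-deficient library. Xpot rose by 0.22. Outside the members, 5 of 6 other cytosolic synthetases were higher and none lower, 6 of 17 mitochondrial synthetases were higher and 1 lower, and 5 of 12 tested further one-carbon and folate genes were higher and none lower, among them Tyms (1.01), the thymidylate synthase, and Sfxn1 (0.61), a mitochondrial serine carrier. Of 13 tested other ATF4 and stress genes 2 were higher, Stc2 (0.96) and Slc7a5 (0.38), and 2 lower, among them Gpt2 (-1.41), an alanine transaminase. Of 7 genes of the unfolded protein response 0 were higher and 1 lower.

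Proliferation genes and markers of other cells moved with the genotype, and their part in the result was not tested. Of 12 cell cycle genes 6 were higher and none lower, with summed levels of 2257 to 2434 CPM in Tet2/3-deficient cells and of 1587, 872, 1500 and 810 in control S1 to S4. Myc was higher (0.50 ± 0.06, edgeR adjusted p = 9.85e-05). The 5 myeloid and dendritic markers summed to 39.2 to 105 CPM in Tet2/3-deficient cells and 30.3 to 37.0 in controls, with 1 of 4 tested called higher. The 2 CD8 markers summed to 3.37 to 5.30 and 24.8 to 28.5 CPM, both called lower. The NK markers summed to 8.29 to 12.2 CPM in Tet2/3-deficient cells and 3.71 to 5.86 in controls, and the 1 tested, Klrb1c, was higher (1.26), while Ncr1 was at 0.26 CPM or less in every library. Of 4 erythroid markers 1 was lower, and none of 4 B cell markers was called.

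The count depended on control libraries S2 and S4, which had the lower cell cycle sums. With both left out, 12 members were called, 11 higher and 1 lower, and with S2 alone left out 13. With S1 and S3 left out the count was 20. Calls over all genes, 3800 in the full fit, also fell with S2 and S4 left out, to the count given in the closing section. The fall was therefore not particular to the members. Asns, Sesn2, Shmt1, Shmt2, Psat1, Mthfd1, Cars, Gars, Iars, Kars and Eprs were higher, and Trib3 lower, whichever single library was left out. With S2 and S4 left out, Phgdh, Asns, Sesn2, Psat1, Shmt1, Shmt2 and Trib3 were still called, while Psph, Mthfd1l, Mthfd2, Gars, Lars, Mars, Yars and Xpot were not.

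**Figure D4:**
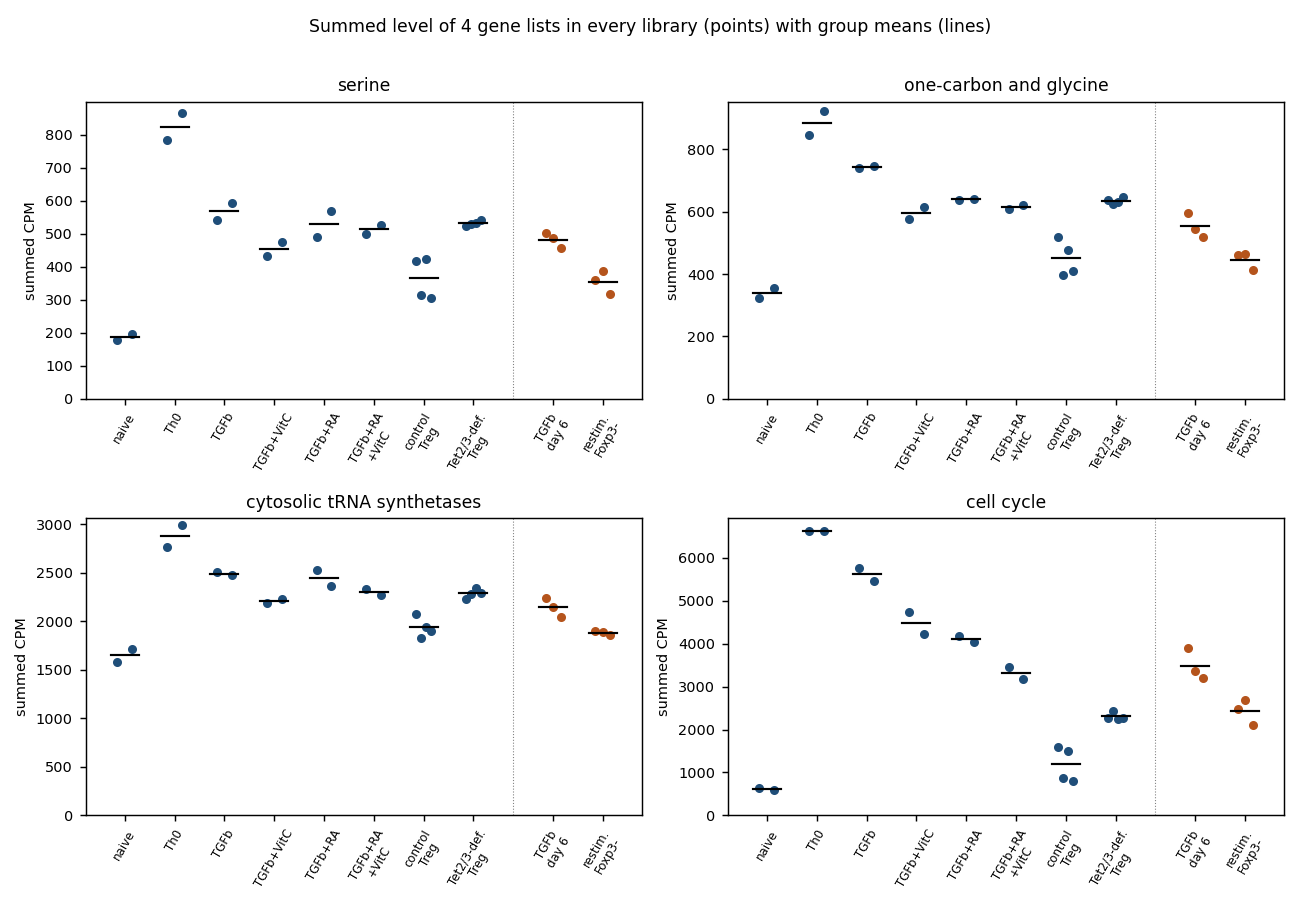
Summed level (CPM, linear axes from 0) of the 3 serine genes, the 6 one-carbon and glycine genes, the 14 cytosolic tRNA synthetase members and 12 cell cycle genes in every library (points; lines are group means; blue, first table; orange, second table). The cell cycle sum is 6615 in Th0, 5620 in TGFβ iTreg and 613 in naive cells on average, and control Treg split into 2 libraries near 1500 to 1587 and 2 near 810 to 872.

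Control Treg were also set beside naive cells, which differed from them in age, in floxed genotype and in Foxp3 state, so that these cannot be told apart. Of 34 tested members 14 were higher and 4 lower in Treg (edgeR), against 28.6% and 26.3% of all genes, with a member median log2 fold change of 0.17. Atf4 was the member with the smallest p in this comparison and was lower in Treg, at 102, 98.8, 86.0 and 90.7 CPM against 177 and 157 (-0.96 ± 0.10, edgeR adjusted p = 1.15e-05). Cebpb, a C/EBP-family gene, was at 4.58, 3.96, 4.30 and 4.31 CPM against 6.95 and 6.43 (-0.78 ± 0.20, edgeR adjusted p = 0.00728). Several genes of synthesis and stress output were higher: Asns (4.08 ± 0.57, from 7 reads in all in naive cells), Psat1 (136, 108, 152 and 109 CPM against 48.3 and 53.4, 1.17 ± 0.15), Eif4ebp1 (9.53, 11.5, 14.8 and 11.9 against 5.14 and 4.56, 1.16 ± 0.22), Shmt1 (1.10 ± 0.20), Sesn2 (0.97 ± 0.19) and Phgdh (0.74 ± 0.18).

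All 3 serine genes were higher in control Treg, and of the synthetases Aars (0.34), Wars (0.33), Tars (0.27) and Kars (0.21) were higher while Mars (-0.34) and Cars (-0.30) were lower. The count of called members fell to 10 without the first naive library and 11 without the second. Psat1, Atf4, Eif4ebp1, Shmt1, Sesn2, Asns and Aldh18a1 were called whichever library was left out. The ex vivo Treg held more RNA of other cell types than naive cells did: 4 of 4 B cell and 4 of 4 erythroid markers were called higher, with B cell sums of 42.6 to 103 CPM against 2.01 to 2.80 in naive cells. Of the cell cycle genes 4 of 12 were higher. Their part in the result was not tested.

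Cells that were Foxp3- after restimulation had less of most members than day 6 TGFβ iTreg. Of 35 tested members 3 were higher and 25 lower (edgeR), against 33.6% and 35.2% of all 11252 genes tested, with medians of -0.34 over the members and -0.01 over all genes. Atf4 was at 90.5, 102 and 92.3 CPM in the restimulated cells and at 191, 198 and 182 in day 6 iTreg, a 2.11-fold difference (-1.08 ± 0.06, edgeR adjusted p = 1.02e-09). Atf5 (6.38, 4.22 and 5.87 CPM against 9.51, 11.5 and 11.8, -1.10), Ddit3 (-1.04) and Cebpb (-0.86) were lower as well. The groups did not overlap in any of the 4, but the share of all genes without overlap is not given here. Cebpg was not called.

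All 3 genes of asparagine and proline synthesis fell. Asns was at 3.19, 4.54 and 2.90 CPM against 12.8, 15.9 and 14.1, a 4.22-fold difference (-2.08 ± 0.16, edgeR adjusted p = 2.24e-08). Pycr1 was at 0.974, 1.26 and 1.35 CPM against 3.06, 3.89 and 3.34 (-1.58 ± 0.23, edgeR adjusted p = 1.84e-05), and Aldh18a1 fell by 0.51. Eif4ebp1 was at 24.5, 24.3 and 26.2 against 48.5, 55.3 and 51.9 CPM (-1.13 ± 0.07, edgeR adjusted p = 4.19e-09). Chac1 had no read in any restimulated library and 7, 28 and 18 in day 6 iTreg, so it was at least 16.9-fold lower against a floor of 3 counts over the group, without a test.

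Within the one-carbon genes the members parted. Mthfd1l, the mitochondrial formate-releasing enzyme, was at 74.2, 71.9 and 61.8 CPM against 153, 145 and 147 (-1.18 ± 0.07, edgeR adjusted p = 7.94e-10). Mthfd2 (-0.55), Shmt1 (-0.34) and Shmt2 (-0.32) were lower by less, and the cytosolic Mthfd1 was not called. Gldc was higher, at 47.2, 43.7 and 40.8 CPM against 15.4, 9.41 and 9.61, a 3.68-fold difference (1.88 ± 0.15, edgeR adjusted p = 1.46e-06). Of the serine genes Phgdh (-0.57) and Psat1 (-0.55) were lower and Psph was not called.

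Of the 14 synthetase members 11 were lower and none was higher. Cars led, at 18.4, 18.4 and 16.3 CPM against 45.3, 42.7 and 42.5, a 2.59-fold difference (-1.38 ± 0.07, edgeR adjusted p = 4.45e-10), apart from the other 10, which were lower by 0.18 (Vars) to 0.54 (Sars) on the log2 scale. Eprs, Lars and Wars were not called. Xpot, by contrast, was higher (111, 113 and 110 CPM against 93.2, 88.2 and 83.7, 0.26 ± 0.06, edgeR adjusted p = 0.000749), and so was Trib3, at 53.7, 54.4 and 57.5 against 35.4, 39.95 and 37.3 CPM (0.48 ± 0.07, edgeR adjusted p = 1.84e-05). For 27 of the 28 called members the call held whichever library was left out; Nars was the exception. Among members with the searched letters in their promoter window, 1 was higher and 7 lower of 8 tested, and among those with a window without the letters 2 were higher and 13 lower of 20. The median log2 fold change was -0.35 with the letters and -0.43 without. In Tet2/3-deficient against control Treg, 4 were higher and 1 lower of 8 with the letters. Without them 12 were higher and 0 lower of 19. A difference between members with and without the letters was not tested.

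In the lists set beside the members, 10 of 17 tested other ATF4 and stress genes were lower and 3 higher, and 5 of 6 other cytosolic synthetases were lower and none higher, while of 17 mitochondrial synthetases 2 were lower and 4 higher. Among the eIF2 alpha kinases and their sensors 4 were higher and 2 lower of 7. Eif2ak3, which encodes the endoplasmic reticulum kinase PERK, was higher (1.39 ± 0.06, edgeR adjusted p = 5.10e-11), and Eif2ak4, which encodes GCN2, was lower (-0.68 ± 0.11, edgeR adjusted p = 8.57e-05). Xbp1, a transcription factor of the unfolded protein response, fell by 2.45 ± 0.07. Of 12 cell cycle genes 9 were lower, with sums of 2104 to 2686 CPM against 3203 to 3893, and their part was not tested. The 4 B cell markers summed to 2.15 to 3.38 CPM in day 6 iTreg and 1.10 to 2.02 in the restimulated cells, with the 1 tested, Cd79b, lower (-0.83) and Ms4a1 at 0 in all 6 libraries. The 5 myeloid markers summed to 0.467 to 0.806 and 0 to 0.258 CPM, with none tested and Csf1r and Itgax at 0 in all 6. The 1 tested CD8 marker and 1 of 2 tested immature thymocyte markers were lower, and the erythroid gene Hbb-b1 was at 36.6 to 64.0 CPM in day 6 iTreg and 0 in the restimulated cells.

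Across the comparisons 2 members departed most often from the rest. Gldc was tested in 7 of 9 comparisons, interaction aside, and was called in 5, each time higher. In the first table, most called members were lower in 4 comparisons among cultured cells. Gldc was called higher in 3 of these 4 (TGFβ against Th0, and VitC with and without RA). In the other, RA added to TGFβ, Gldc was not called (-0.27 ± 0.16). It was also called higher after restimulation, where 3 members were higher and 25 lower. Trib3 was called in 6, higher in 2 and lower in 4, and was the lone lower member in Tet2/3-deficient Treg and 1 of 3 higher members after restimulation. The comparisons share libraries (TGFβ iTreg, RA iTreg, VitC iTreg, Th0, naive and control Treg libraries each enter more than 1), so these counts are not independent of one another.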

How the data were processed

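Polyadenylated RNA was sequenced from 26 samples as stranded libraries, per the labels' protocols. Per the submitters' processing notes, the build was mouse mm9, and the tools named include TopHat2 2.1.1 and Trim Galore 0.4.2; the counting tool, its strand setting and the annotation are not given in the sources used here, so overlapping genes may share reads. The authors deposited raw counts per gene, with exon length, and FPKM values, which are the counts scaled by library total and exon length; FPKM was used only to compare levels between genes. The columns of ex vivo Treg name a group and a library number (S1 to S8) but no single sample. The 36 members and the lists beside them were chosen with earlier results of these data known.

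Counts were tested in each table separately with edgeR 4.0.16 in R 4.3.3 (TMM factors, filterByExpr, robust quasi-likelihood test, Benjamini-Hochberg adjustment over all genes tested, threshold 0.05). Naive and cultured libraries shared 1 fit, and each other comparison had its own. The standard error is the log2 fold change divided by the square root of F. Every member is named by its values or within a count; of the lists beside them, up to 3 called genes with the largest change were named, and others named were chosen after their values were seen. Some genes of these lists are not reported here by name. Among the 4 iTreg groups of the first table, the 12 same-numbered pairs of libraries deviated together from their group means (correlation 0.222 to 0.418). With 2 libraries a group, the deviations of a group mirror each other. Each correlation therefore enters once for each number, and the 12 pairs are not independent. This pairing comes from the data, since the labels do not say what a number stands for. Fits with the number as a block are given beside those results. The procedure was tested on simulated data. Other settings tried were a replicate block, leaving out libraries, a single fit of all libraries of the first table, RLE factors, DESeq2 1.42.0 and no filter on low counts. Library totals of 9647669 to 17672302 counts limit the precision of genes with few reads.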

Additional observations from a re-analysis of the deposited data

Results flagged for a closer look

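Of 68 member and group combinations with 4 libraries, 3 had a library whose gap to the nearest other exceeded Dixon's 95% critical value, and chance alone gives about 1 in 20. Trib3 in control Treg library S1 was at 14.3 CPM against 6.35 to 6.90 in the other 3 (gap over range 0.930). Cebpg in control library S3 was at 64.0 CPM against 68.3 to 68.5 (0.968). Gars in Tet2/3-deficient library S7 was at 200 CPM against 193 to 194 (0.877).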

How the results depend on the processing

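No called member changed direction under any alternative run, while some that were not called did, such as Asns in TGFβ iTreg against Th0 (-1.25, and 0.04 without the second Th0 library). For retinoic acid with TGFβ the count of 3 called members became 6 with DESeq2, 5 with RLE factors and 0 with all libraries of the first table in 1 fit, and with TGFβ and VitC the count of 3 became 1 with all libraries in 1 fit. For VitC added to TGFβ and RA, the 5 called members became 2 with all libraries in 1 fit. For the interaction, 2 genes of all tested became 17 with DESeq2 and 25 without the count filter. With control libraries S2 and S4 left out, a choice made after seeing the data, the genotype comparison of ex vivo Treg gave 12 members and 2401 genes in place of 20 and 3800. The cause of these changes was not tested.

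Leaving out 1 library at a time, called members ranged from 8 to 21 for TGFβ iTreg against Th0, 5 to 7 for VitC with TGFβ, 0 to 3 for RA with TGFβ, 1 to 3 for VitC with TGFβ and RA, 0 to 1 for RA with TGFβ and VitC, 13 to 19 for Tet2/3-deficient against control Treg and 10 to 18 for control Treg against naive cells. Over all genes the ranges were, in that order, 1480 to 1945, 771 to 1001, 795 to 1898, 424 to 899, 819 to 1367, 2831 to 4141 and 4402 to 6755, and 1 to 11 for the interaction. Where a group kept 1 library, that library was assumed to vary like the other groups.

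With the replicate block, 9 members were called for RA with TGFβ and 5 for RA with TGFβ and VitC, and over all genes 1363 were called for VitC with TGFβ and RA and 26 for the interaction. The block moved no other count of calls by over 1.5 times. Outside the 4 iTreg groups the numbers did not meet the criterion for pairing: 12 of 30 pairs in all of the first table correlated at over 0.1 (0.0133 to 0.418), and 1 of 3 in the second (0.0778 to 0.197). Each of 12 and 6 libraries correlated best with its own number. In the first table the 2 libraries of a group mirror each other around their mean. Its 30 pairs and 12 libraries are therefore not independent observations. No paired analysis was possible for ex vivo Treg because their column numbers match no single sample.

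Low counts limited Chac1, Asns in naive cells and Gldc in ex vivo Treg, which had few or no reads. The ex vivo Treg libraries had higher totals than the cultured libraries of the first table, in which Gldc was well counted.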
